A study of Mus musculus with 24 samples.

Results

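The 46 mouse genes described here encode the lysosome: 7 subunits of the V0 sector and 8 subunits of the V1 sector of the vacuolar proton pump (V-ATPase), 2 accessory proteins of that pump, 6 lysosomal membrane proteins, 8 lysosomal proteases, 6 glycosidases or thioesterases, 5 other lumenal proteins, the autophagy receptor Sqstm1 and the 3 MiT/TFE transcription factors Tfeb, Tfe3 and Mitf. They were taken by gene symbol from 78298 gene rows, and each of the 46 had a row in the granulosa cell table and in the oocyte table. The set was chosen by the dextran and control values of the granulosa libraries, in which several lysosomal genes were higher with dextran. The dextran values of the 46 genes in granulosa cells are therefore a description, with no p-value for any of them. Tests are given for the oocyte comparisons, which use none of those libraries, and for comparisons with blebbistatin. Those that set a group against the granulosa control libraries share these 4 libraries with the choice, which is stated beside each.

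The lysosome is the acidic compartment in which cells break down protein, glycan and lipid delivered by endocytosis and autophagy. The V-ATPase acidifies it: its soluble V1 sector hydrolyses ATP and its membrane-bound V0 sector carries protons into the lumen. TFEB and TFE3 are transcription factors that the nutrient-sensing kinase mTORC1 holds in the cytosol; when released they enter the nucleus and bind a palindromic E-box, the CLEAR element, in the promoters of many lysosomal and autophagy genes. In the ovary, granulosa cells surround and feed the oocyte, and the growing oocyte stores RNA and protein for early development.

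RNA was sequenced from the granulosa cells and the oocytes of ovarian follicles of wild-type mice, embedded in alginate, a soft hydrogel, and cultured to day 3 with 10% fetal bovine serum and 50 mIU/ml follicle-stimulating hormone. The follicles were grown in 3 media: one with dextran, a polysaccharide dosed to a pressure of 10 kPa, one with 20 µM blebbistatin, an inhibitor of non-muscle myosin II, and a control medium. Each combination of cell type and medium had 4 libraries, 24 in all, made from follicles that had passed 180 µm, which were pulled apart by hand. An oocyte library held 1 to 2 pooled oocytes and a granulosa library pooled granulosa cells, both amplified over 15 PCR cycles, so the p-values measure the spread between such small pools. The labels state neither the age of the animals nor whether the pools came from separate animals, and name no solvent for blebbistatin.

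Promoter windows of 300 bases, from 250 before to 50 after the annotated gene start, were matched for 37 of the 46 genes in RefSeq's table for GRCm38.p6. The CLEAR-type palindrome TCACGTGA was found in the windows of 8 of these 37 genes (21.6%) and in those of 1.12% of all 27025 genes. The 7-base form, TCACGTG or its reverse complement CACGTGA, was in 13 of the 37 genes (35.1%, against 4.29% of all genes), and the E-box core CACGTG, read on both strands, was in 15 (40.5%, against 8.09%). The 8-base palindrome with a G before it and a C after it was found in 1 of the 37 genes, Cln3 (2.7%, against 0.37%). The shorter motifs lie within the longer ones, so these counts overlap. The set was put together as genes of the lysosome, the proton pump and TFEB targets, and TFEB binds this motif. An excess over all genes was thus built in by the choice, and nothing is read from these shares. The 8 genes were Atp6v0d1, Atp6v0e, Atp6v1a, Cln3, Ctsa, Ctsd, Gla and Mcoln1. Stretches around their motifs, and that of Lamp1 with 4 copies of the 7-base form, are shown 5′ to 3′ on the strand of the gene, since this is the sequence to which TFEB and TFE3 are known to bind. Capitals mark TCACGTG, its reverse complement and any flanking base that belongs to a longer form.
Cln3, chr7:126583330-126583405, minus strand: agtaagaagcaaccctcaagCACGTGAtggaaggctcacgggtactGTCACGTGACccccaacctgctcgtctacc
Ctsd, chr7:142387899-142388077, minus strand: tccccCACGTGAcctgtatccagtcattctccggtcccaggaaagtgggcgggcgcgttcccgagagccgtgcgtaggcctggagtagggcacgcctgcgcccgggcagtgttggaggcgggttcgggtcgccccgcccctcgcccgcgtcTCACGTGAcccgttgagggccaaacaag
Ctsa, chr2:164833740-164833784, plus strand: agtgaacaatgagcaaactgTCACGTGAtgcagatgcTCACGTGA
Gla, chrX:134601173-134601253, minus strand: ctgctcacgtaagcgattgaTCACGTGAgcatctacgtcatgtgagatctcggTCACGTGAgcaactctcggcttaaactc
Mcoln1, chr8:3500427-3500500, plus strand: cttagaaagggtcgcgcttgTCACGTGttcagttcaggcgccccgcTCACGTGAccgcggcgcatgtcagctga
Atp6v0d1, chr8:105566053-105566088, minus strand: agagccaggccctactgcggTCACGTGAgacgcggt
Atp6v0e, chr17:26676378-26676407, plus strand: gcggggctttagcgcgccgaTCACGTGAgc
Atp6v1a, chr16:44139364-44139411, minus strand: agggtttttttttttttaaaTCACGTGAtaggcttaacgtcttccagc
Lamp1, chr8:13159079-13159171, plus strand: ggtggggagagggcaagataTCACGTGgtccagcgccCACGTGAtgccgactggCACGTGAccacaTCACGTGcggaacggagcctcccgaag
A match describes letters in a window and not a site that a factor occupies. No match was found for the remaining 29 of the 37 genes with the 8-base palindrome, and no promoter window was read for Atp6v0a2, Atp6v1b2, Atp6v1c1, Atp6v1g1, Atp6v1h, Npc1, Ctsb, Ctsh and Plbd2.

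The libraries held 16432298 to 22431013 estimated counts in granulosa cells and 14244103 to 18399551 in oocytes. Levels below are CPM (counts scaled to the library total) after TMM scaling over the 12 libraries of a cell type, so they compare libraries and not genes of different length. The markers of the labelled cell types were abundant. The 15 granulosa markers summed to 23517 to 30236 CPM in dextran granulosa libraries, 17538 to 23044 CPM in blebbistatin ones and 26683 to 33556 CPM in control ones. By this sum every blebbistatin library lay below every control library. Inha and Gja1 held most of each sum, which does not speak for every marker. Kitl and Wt1, for example, overlapped between blebbistatin and control libraries. The 15 oocyte markers summed to 21837 to 31075 CPM in oocyte libraries. Several libraries stood apart and bear on the lysosomal genes. The 14 macrophage and leukocyte markers summed to 735 and 1074 CPM in blebbistatin granulosa libraries 1 and 2, against 3.97 to 15.1 CPM in the other 10 granulosa libraries. The 15 granulosa markers summed to 598 and 2477 CPM in oocyte control libraries 1 and 2, against 61.5 to 397 CPM in the other 10 oocyte libraries. Cyp19a1 and Nr5a2 were read in every oocyte library, at 17.7 to 36.8 and 23.4 to 43.2 CPM, and made up most of the lowest sums. The 14 theca and stromal markers summed to 419 to 1626 CPM in the blebbistatin granulosa libraries, 24.5 to 384 CPM in the dextran ones and 27.6 to 385 CPM in the control ones. Mitochondrial genes took 3.41% to 4.82% of the counts in dextran granulosa libraries, 3.86% to 9.53% in blebbistatin ones and 2.6% to 4.52% in control ones. Genes with a count numbered 14538 in blebbistatin granulosa library 1, against 18605 to 24297 in the other 11 granulosa libraries. In such pools, fewer cells of a type and less RNA per cell cannot be told apart.

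In granulosa cells cultured with dextran, most of the 46 genes stood above the control, by a modest amount. The log2 difference between dextran and control was positive for 40 of the 46, against 49.5% of the 15370 genes tested, with a median of 0.29 for the 46 and 0.00 for all genes. Over the whole table, no gene passed an adjusted p of 0.05 in edgeR's quasi-likelihood test (0% of 15370), and 523 genes had an unadjusted p under 0.05 (3.4%). The 4 dextran libraries lay wholly above the 4 control libraries for 10 of the 46 genes, against 2.67% of all genes, and wholly below for 2 of the 46, against 2.04%. Since this contrast chose the set, an excess of its members was built in and nothing is read from these counts. The 10 were Atp6v0c, Atp6v0d1, Atp6v1b2, Atp6v1e1, Atp6v1h, Cd63, Cln3, Hexa, Ppt1 and Sqstm1, and the 2 were Atp6v0e2 and Plbd1.

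**Figure D1:**
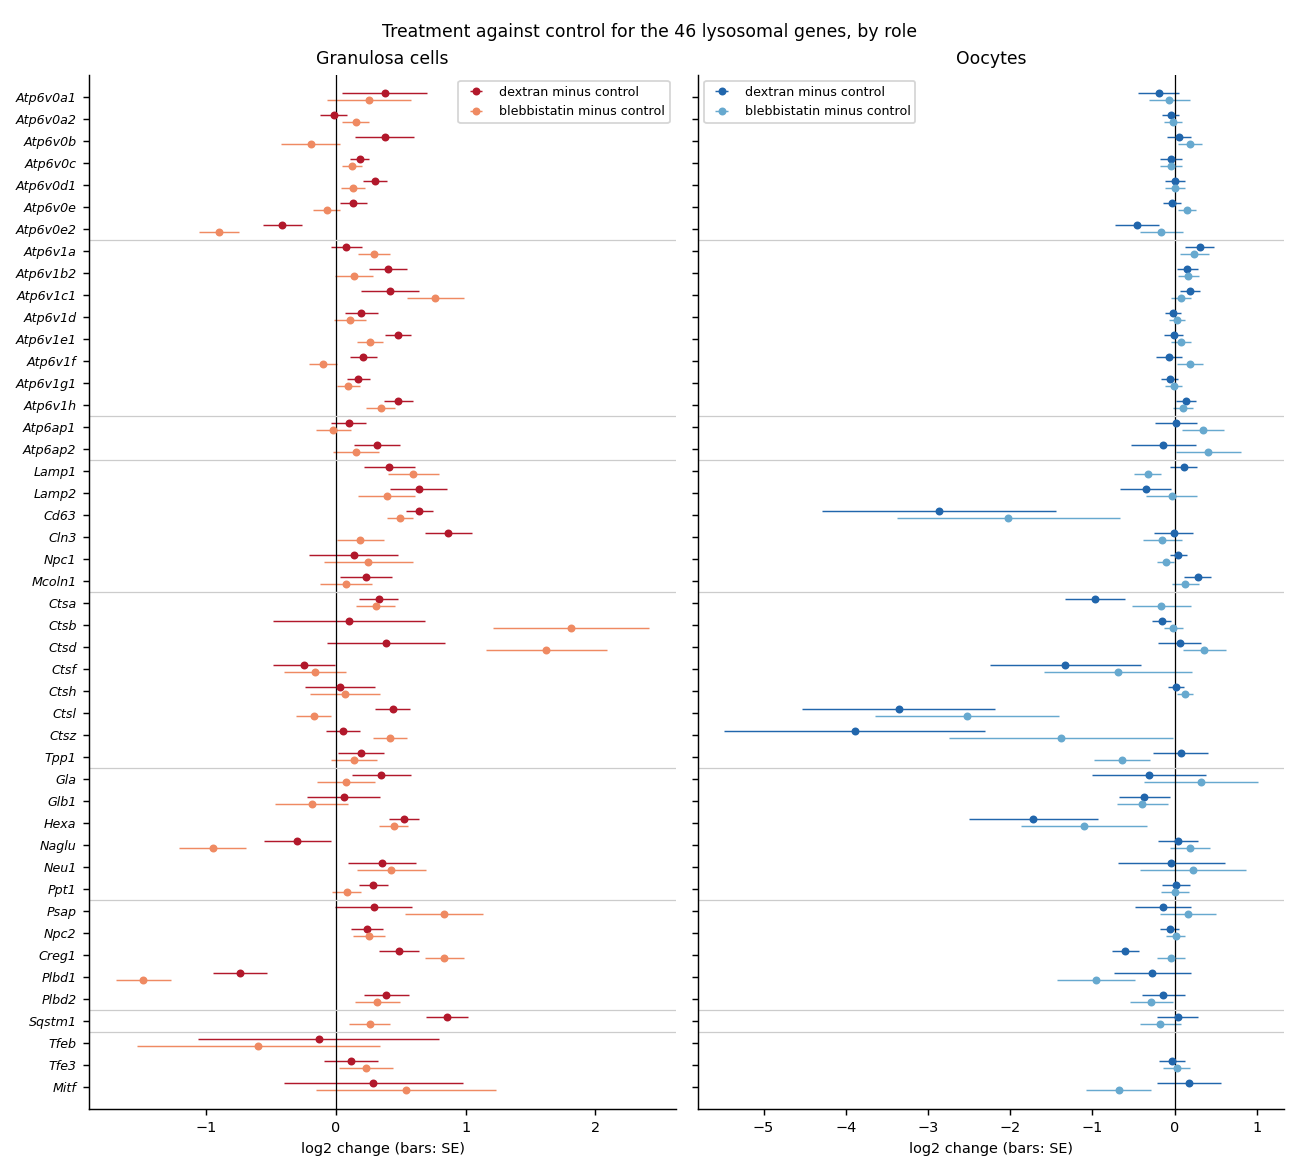
Log2 difference of each of the 46 lysosomal genes in granulosa cells (left) and oocytes (right), dextran minus control and blebbistatin minus control, with bars for the standard error of the fit and lines between roles. In granulosa cells 40 of 46 dextran differences lie right of 0, and in oocytes 17 of 45 do.

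Among the membrane proteins, Cd63, a tetraspanin of late endosomes and lysosomes, had 336, 436, 331 and 427 CPM in dextran libraries 1 to 4, against 237, 251, 249 and 242 CPM in the control libraries. The groups did not overlap, and the log2 difference was 0.64 ± 0.10 (SE). Cln3, the membrane protein lost in juvenile neuronal ceroid lipofuscinosis, had 134, 138, 205 and 162 CPM in dextran libraries, against 68.7, 103, 87.1 and 91.05 CPM in control libraries, a log2 difference of 0.87 ± 0.18 (SE). Every dextran library was above every control library, and library 3 was the highest. Lamp1 and Lamp2, the abundant glycoproteins that coat the inner face of the lysosomal membrane, overlapped between the groups. Lamp1 had 249, 156, 198 and 168 CPM with dextran, against 202, 139.5, 126 and 112 CPM in control, and Lamp2 had 264, 280.4, 215 and 299 CPM with dextran, against 131, 127, 169.5 and 253 CPM in control. Mcoln1, the lysosomal calcium release channel, had 47.96, 33.4, 47.2 and 49.5 CPM with dextran, against 39.8, 33.9, 43.1 and 35.1 CPM in control, with dextran library 2 the one low value. Npc1, which exports cholesterol from the lysosome, had 15.7, 17.7, 20.8 and 20.9 CPM with dextran, against 13.6, 19.7, 15.96 and 19.1 CPM in control, and the groups overlapped.

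Sqstm1, the p62 receptor that carries ubiquitinated cargo into autophagosomes and is itself degraded in the lysosome, had 645, 843, 1073 and 1049.5 CPM in dextran libraries, against 466, 579.97, 398 and 553 CPM in control libraries. All 4 dextran values were higher, with a log2 difference of 0.85 ± 0.16 (SE). Cln3 and Sqstm1 had the 2 largest positive log2 differences of the 46.

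The V-ATPase subunits differed less. All 8 V1 subunits had a positive log2 difference, with a median of 0.31 and a low of 0.08, and 5 of 7 V0 subunits did, with a median of 0.18. Atp6v1e1, a stalk subunit of V1, had 147, 148, 160.1 and 169 CPM with dextran, against 106, 102, 111 and 129.6 CPM in control, a log2 difference of 0.47 ± 0.10 (SE) with no overlap. Atp6v1b2, the nucleotide-binding B subunit found in most tissues, had 129.5, 136, 137 and 139.9 CPM with dextran, against 107, 102, 103 and 97.6 CPM in control, again without overlap. Atp6v1a, the catalytic subunit, had 90.6, 84.7, 74.1 and 77.03 CPM with dextran, against 73.1, 71.4, 76.2 and 88.5 CPM in control, and its groups overlapped. In V0, the proton-carrying ring subunit Atp6v0c had 303, 301, 270.2 and 293 CPM with dextran, against 259, 248, 252 and 268 CPM in control. Atp6v0d1, which joins the ring to the stalk, had 118, 134, 121 and 133 CPM with dextran, against 107, 94.2, 97.1 and 112 CPM in control. Neither overlapped, and their log2 differences were 0.18 ± 0.07 (SE) for Atp6v0c and 0.30 ± 0.09 (SE) for Atp6v0d1. Annotated copies of Atp6v0c and Cd63 had at most 2.55 CPM in any library, and how reads were shared between gene and copy was not tested. Of the 2 isoforms of the a subunit, which places the pump in a given membrane, Atp6v0a1 had 63.8, 45.6, 57.9 and 72.6 CPM with dextran, against 47.1, 49.2, 47.1 and 41.4 CPM in control, and Atp6v0a2 had 59.7, 55.3, 53.1 and 60.5 CPM with dextran, against 56.7, 55.4, 58.2 and 60.98 CPM in control. Both overlapped. The small e subunit isoform Atp6v0e2 went the other way: 91.1, 95.7, 117 and 108 CPM with dextran, against 135, 126, 151 and 136 CPM in control, a log2 difference of -0.41 ± 0.15 (SE) with all 4 dextran libraries lower.

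Among the proteases, 7 of 8 had a positive log2 difference but none of the 8 separated the groups. Ctsl, a cysteine cathepsin, had 2689, 2143, 2117 and 2393 CPM with dextran, against 1578, 1482, 1543 and 2305 CPM in control, where control library 4 reached into the dextran range. Ctsd, the aspartic cathepsin, had 371, 330.1, 262 and 324 CPM with dextran, against 275, 240.5, 224 and 245 CPM in control, and Ctsb, another cysteine cathepsin, had 339.8, 277, 139 and 228 CPM with dextran, against 299.6, 206, 208 and 206 CPM in control. Dextran library 3 was the lowest of its group for all 3 of these cathepsins. Ctsf, the one protease with a negative log2 difference, had 25.3, 27.4, 23.7 and 33.3 CPM with dextran, against 25.9, 22.3, 32.4 and 49.5 CPM in control. Psap, the precursor of the saposins that present sphingolipids to their hydrolases, had 652, 672, 556 and 712 CPM with dextran, against 567, 538, 431 and 582 CPM in control. Npc2, which hands cholesterol to Npc1, had 233, 229, 171 and 187 CPM with dextran, against 181, 162, 176 and 176 CPM in control. Both overlapped. Plbd1, a phospholipase B-like protein, had 78.3, 82.95, 44.1 and 61.3 CPM with dextran, against 139, 86.7, 127 and 92.4 CPM in control, a log2 difference of -0.74 ± 0.21 (SE), the most negative of the 46. Naglu, which removes N-acetylglucosamine from heparan sulfate, had 210.5, 163, 130.4 and 174 CPM with dextran, against 197, 154, 323 and 159 CPM in control, and control library 3 was far above the rest.

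The 3 transcription factors themselves did not separate the groups. Tfeb was low, with 1.15, 1.83, 0.988 and 1.29 CPM with dextran, against 1.17, 2.17, 1.30 and 1.14 CPM in control, where 3 reads in a granulosa library correspond to 0.136 to 0.18 CPM. Tfe3 had 24.3, 23.6, 28.3 and 19.4 CPM with dextran, against 20.97, 17.1, 21.1 and 29.2 CPM in control, a log2 difference of 0.11 ± 0.21 (SE). Mitf had 7.56, 2.73, 5.69 and 8.49 CPM with dextran, against 4.44, 4.30, 5.29 and 6.002 CPM in control. The 8 genes with TCACGTGA in the promoter window had a median log2 difference of 0.315 with dextran and the 29 matched genes without it 0.287; as these values chose the set, nothing is read from the pair.

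**Figure D2:**
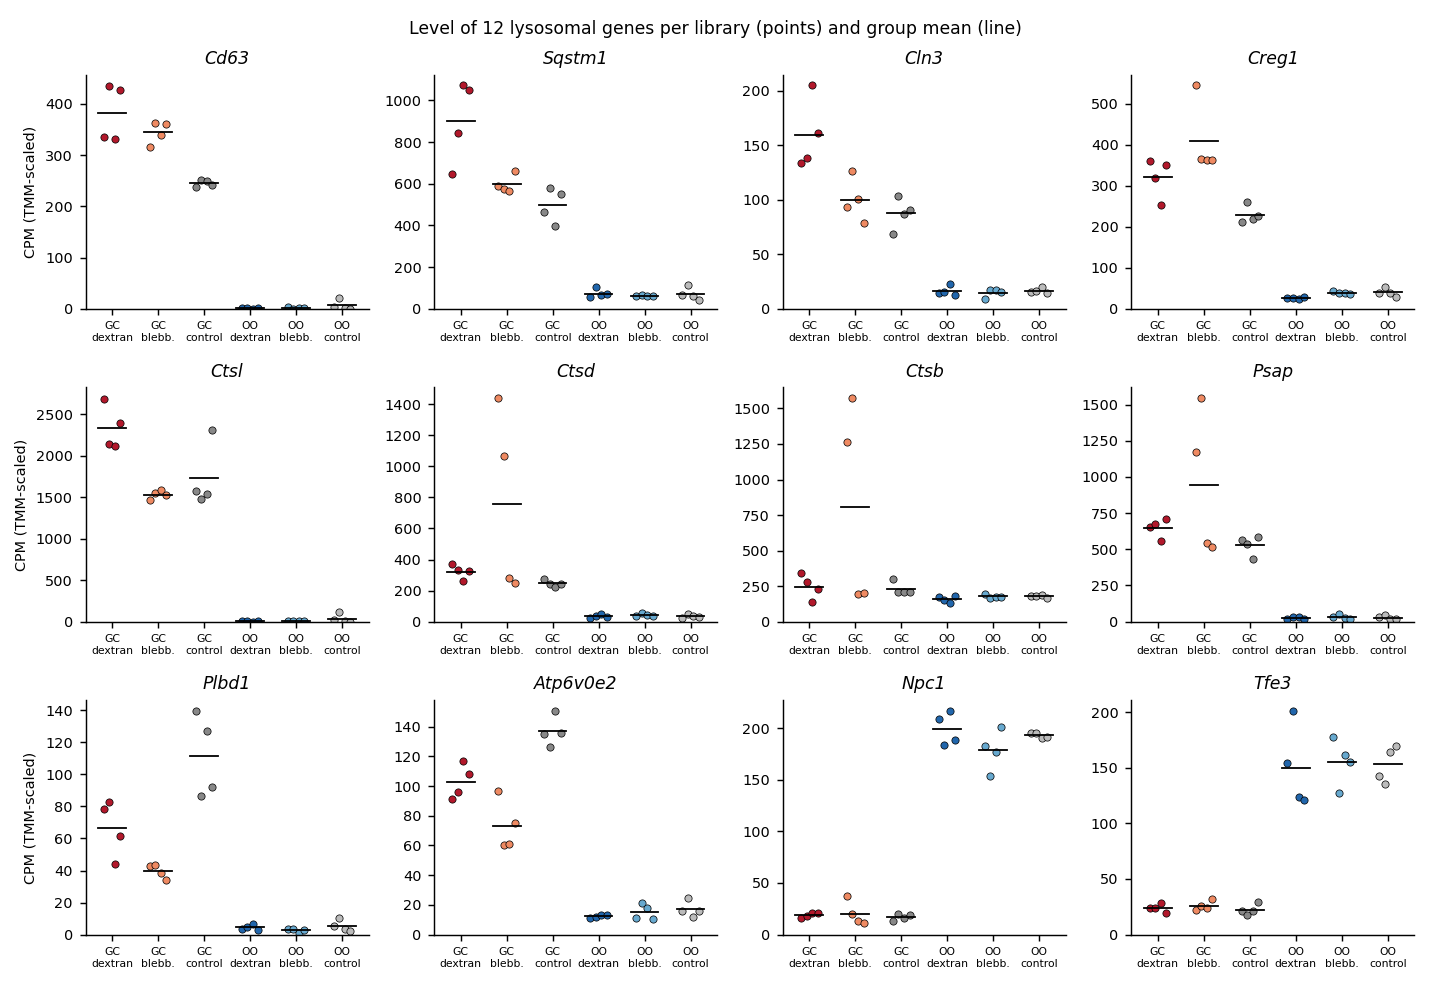
CPM (linear axis) of 12 of the lysosomal genes in every library, with granulosa cells and oocytes in dextran, blebbistatin and control medium. Points are libraries and bars are group means, scaled over the 12 libraries of a cell type. Cd63 and Sqstm1 in granulosa cells show the dextran libraries above the control libraries, and Cd63, Ctsl and Sqstm1 lie far lower in oocytes.

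Genes of the same pathways outside the 46 were compared with dextran as well, and none passed the threshold. A positive dextran difference was found for 49.5% of all genes. Of 33 other lysosomal hydrolases tested in granulosa cells, 26 had a positive dextran difference with a median of 0.14, and 17 of 21 other lysosomal membrane proteins did with the same median. Of 26 autophagy genes, 19 were positive with a median of 0.11, and the mTORC1 regulators had 17 of 27 with a median of 0.06. Map1lc3b, the LC3 protein of autophagosome membranes, averaged 377 ± 22.9 CPM with dextran and 298 ± 44.4 CPM in control (SD, n = 4 each), and Rb1cc1, a scaffold of the autophagy initiation kinase, 106.7 ± 9.26 CPM with dextran and 76.0 ± 6.77 CPM in control (SD, n = 4 each). Flcn, which relays amino acid supply to mTORC1 and TFEB, averaged 51.9 ± 13.9 CPM with dextran and 29.7 ± 10.7 CPM in control (SD, n = 4 each). Map1lc3b, Rb1cc1 and Flcn were named for a small p upwards, while 7 of the autophagy genes and 10 of the mTORC1 regulators were negative. The lists were drawn up with earlier results of these data known, so nothing is read from these values. Mannose 6-phosphate sorting genes, which deliver hydrolases to the lysosome, were split, with 7 of 13 positive and a median of 0.00.

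With blebbistatin, none of the 46 genes passed the threshold in granulosa cells. In edgeR's quasi-likelihood test 1 of 15370 genes passed an adjusted p of 0.05 (0.00651%) and it was none of the 46. Of the 46, 15 had an unadjusted p under 0.05, against 10.4% of all genes. The log2 difference between blebbistatin and control was positive for 35 of the 46, against 45.4% of all genes, with a median of 0.17 for the 46 and -0.05 for all genes. Without blebbistatin libraries 1 and 2, described below, 27 of the 46 were positive. This comparison uses the same 4 control libraries as the one that chose the set, so no likeness to the dextran values is read from these counts. The lower granulosa marker sums, higher stromal marker sums and higher mitochondrial shares of the blebbistatin libraries stand beside these differences, and their part in them was not tested. The smallest adjusted p-values belonged to 2 genes that were lower with blebbistatin. Plbd1 had 42.9, 43.3, 38.7 and 34.1 CPM with blebbistatin, against 139, 86.7, 127 and 92.4 CPM in control, a log2 difference of -1.49 ± 0.21 (SE, adjusted p = 0.0606). Atp6v0e2 had 96.7, 60.3, 60.9 and 75.4 CPM with blebbistatin, against 135, 126, 151 and 136 CPM in control, a log2 difference of -0.90 ± 0.15 (SE, adjusted p = 0.0968). For both genes every blebbistatin library was below every control library. Naglu was the third gene whose blebbistatin libraries all lay below the control, at 72.5, 100.2, 116 and 141 CPM, against 197, 154, 323 and 159 CPM in control (log2 difference -0.95 ± 0.26, SE, adjusted p = 0.226). The share of genes with such a separation downwards was 4.14%, and upwards 2.46%.

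In the other direction, 5 of the 46 genes had all blebbistatin libraries above the control, namely Atp6v1h, Cd63, Ctsz, Hexa and Creg1. Creg1, a lysosomal glycoprotein that is also secreted, had 545, 366, 362 and 362 CPM with blebbistatin, against 211, 261, 219 and 225 CPM in control, a log2 difference of 0.84 ± 0.15 (SE, adjusted p = 0.102). Its library 1 was far above the other 3 blebbistatin libraries. Cd63 had 317, 363, 339 and 362 CPM with blebbistatin, against 237, 251, 249 and 242 CPM in control, a log2 difference of 0.49 ± 0.10 (SE, adjusted p = 0.11). Hexa, the alpha subunit of beta-hexosaminidase, had 179, 168, 172 and 133 CPM with blebbistatin, against 113, 117, 125 and 125 CPM in control, a log2 difference of 0.44 ± 0.11 (SE, adjusted p = 0.206). Sqstm1, which had the clear dextran separation, had 589, 575, 565 and 659 CPM with blebbistatin, against 466, 579.97, 398 and 553 CPM in control, and overlapped (log2 difference 0.26 ± 0.16, SE, adjusted p = 0.609). Cln3 likewise overlapped, at 93.8, 126, 100.4 and 78.7 CPM with blebbistatin, against 68.7, 103, 87.1 and 91.05 CPM in control.

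The largest blebbistatin differences belonged to Ctsb and Ctsd, and they were not seen without the libraries that held macrophage markers. Ctsb had 1263, 1576, 191 and 200.02 CPM in blebbistatin libraries 1 to 4, against 299.6, 206, 208 and 206 CPM in control, and Ctsd had 1437, 1066, 281 and 247 CPM with blebbistatin, against 275, 240.5, 224 and 245 CPM in control. Psap had 1174, 1542, 545 and 513 CPM with blebbistatin, against 567, 538, 431 and 582 CPM in control. For all 3, libraries 1 and 2 were high and libraries 3 and 4 were within or near the control range. Those 2 libraries were also the ones with 735 and 1074 CPM of summed macrophage and leukocyte markers, with 11 and 14 of the 14 markers detected. Libraries 3 and 4 had sums of 4.61 and 3.97 CPM with 3 markers each. Among the 14, Adgre1, Tyrobp, C1qc and Itgam were at 0 in all dextran libraries, and Adgre1, C1qa, Laptm5 and Itgam in all control libraries. Without libraries 1 and 2, the log2 difference was -0.22 for Ctsb (1.81 with all 4), 0.11 for Ctsd (1.62 with all 4) and 0.01 for Psap (0.83 with all 4). Gpnmb, a membrane glycoprotein of macrophage lysosomes outside the 46, averaged 281 ± 370 CPM with blebbistatin and 0.915 ± 1.83 CPM in control (SD, n = 4 each). In the same reduced fit 27 of the 46 genes were positive, with a median of 0.07, and the differences of Cd63 (0.53, adjusted p = 0.0829), Creg1 (0.67, adjusted p = 0.0662) and Plbd1 (-1.60, adjusted p = 0.0507) stayed close to their values with all libraries. Atp6v0e2 then passed the threshold (-0.998, adjusted p = 0.0392). It also passed without library 1 alone (adjusted p = 0.0189) and without library 2 alone (0.0486). Plbd1 passed without library 2 (0.0437) or without dextran library 3 (0.0374), and Creg1 without library 2 (0.0437). The number of all genes called also changed between such fits and is given in the last section. As the control libraries also chose the set, nothing is read from these passes. The summed stromal markers were higher in all 4 blebbistatin libraries (419 CPM or more) than in any control library (385 CPM or less). Taken singly, Col1a1, Col1a2, Pdgfra and Tcf21 separated the groups in this way. Lum, Col3a1, Dcn, Acta2 and Tagln, for example, overlapped.

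**Figure D3:**
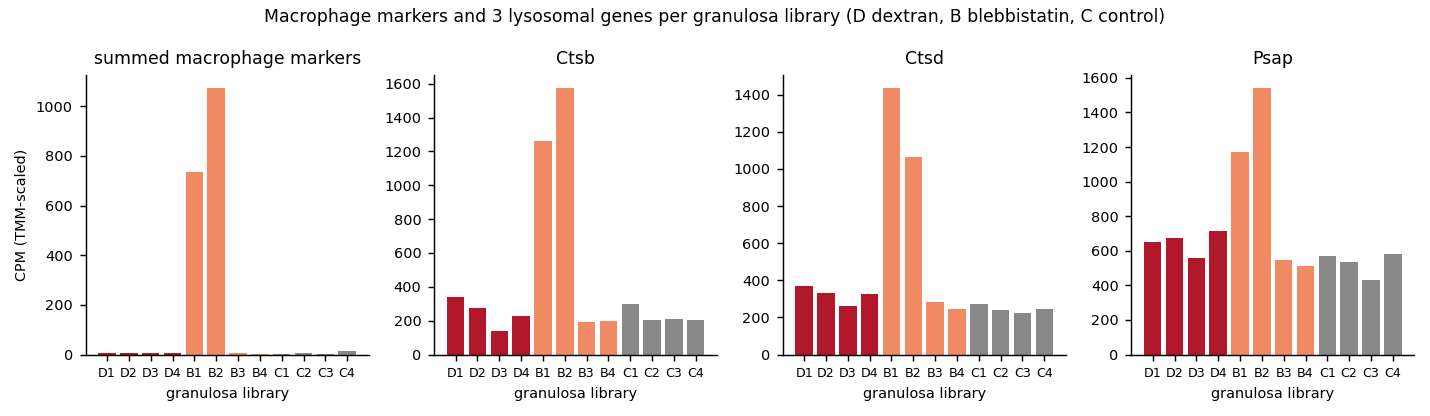
Summed CPM of the 14 macrophage and leukocyte markers, and CPM of Ctsb, Ctsd and Psap, in each of the 12 granulosa libraries (D dextran, B blebbistatin, C control; 1 bar per library). Blebbistatin libraries 1 and 2 carry 735 and 1074 CPM of the markers and are also the 2 highest libraries for Ctsb, Ctsd and Psap.

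None of the other genes described with dextran passed with blebbistatin. Lamp1 had 214, 195, 203 and 263 CPM with blebbistatin, against 202, 139.5, 126 and 112 CPM in control (log2 difference 0.60 ± 0.20, SE, adjusted p = 0.293), with control library 1 inside the blebbistatin range. Lamp2 had 174, 193, 255 and 269 CPM with blebbistatin, against 131, 127, 169.5 and 253 CPM in control, and Ctsl had 1469, 1547, 1582 and 1526 CPM with blebbistatin, against 1578, 1482, 1543 and 2305 CPM in control. Both overlapped. Among the pump subunits, the log2 difference was 0.29 ± 0.12 for Atp6v1a, 0.14 ± 0.15 for Atp6v1b2, 0.12 ± 0.07 for Atp6v0c and 0.13 ± 0.09 for Atp6v0d1 (SE each), with adjusted p between 0.425 and 0.795. Atp6v0a1 ranged most, at 18.7, 57.6, 64.3 and 79.9 CPM with blebbistatin, against 47.1, 49.2, 47.1 and 41.4 CPM in control, with library 1 the low value. Tfe3 had 22.1, 25.7, 23.6 and 32.3 CPM with blebbistatin, against 20.97, 17.1, 21.1 and 29.2 CPM in control, while Mitf had 18.3, 5.31, 4.50 and 0.901 CPM with blebbistatin, against 4.44, 4.30, 5.29 and 6.002 CPM in control and was high in library 1. Tfeb had 0, 1.52, 0.429 and 1.86 CPM with blebbistatin, against 1.17, 2.17, 1.30 and 1.14 CPM in control.

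Set beside each other, blebbistatin and dextran granulosa libraries differed by a log2 median of -0.10 over the 46 genes (16 positive) and -0.05 over all genes, with 0 genes past the threshold in edgeR's test and 1358 of all genes (8.84%) at an unadjusted p under 0.05. Cln3, Ctsl and Plbd1 lay wholly lower with blebbistatin (3.78% of all genes did) and Creg1 wholly higher (1.84%). Ctsl averaged 1531 ± 47.04 CPM with blebbistatin and 2336 ± 266 CPM with dextran (SD, n = 4 each), and Cln3 99.7 ± 19.8 CPM with blebbistatin and 159.7 ± 32.7 CPM with dextran (SD, n = 4 each). These values are a description, as the dextran libraries chose the set.

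In oocytes, none of the 46 genes passed the threshold with dextran. Of the 46, 45 passed the filter on low counts; Tfeb did not. No gene of 16749 passed the threshold in edgeR's test (0%), and 5 of the 45 had an unadjusted p under 0.05, against 5.31% of all genes. The log2 difference between dextran and control was positive for 17 of the 45, against 50.5% of all genes, with a median of -0.04 for the 45 and 0.00 for all genes. None of the 45 had groups that did not overlap, against 1.14% of all genes wholly higher and 1.25% wholly lower. Sqstm1 had 55.4, 102, 65.3 and 70.03 CPM in dextran oocytes, against 64.6, 117, 61.3 and 43.1 CPM in control oocytes (log2 difference 0.04 ± 0.25, SE, adjusted p = 0.999). Cln3 averaged 16.2 ± 4.29 CPM with dextran and 16.4 ± 2.81 CPM in control (SD, n = 4 each). Lamp1 had 261, 236, 309.9 and 358 CPM with dextran, against 225, 217, 273 and 366 CPM in control, and Lamp2 had 12.6, 7.12, 8.68 and 13.7 CPM with dextran, against 11.4, 20.6, 10.5 and 11.2 CPM in control. Both overlapped.

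The 5 oocyte genes with an unadjusted p under 0.05 were all lower with dextran: Creg1, Ctsa, Ctsl, Ctsz and Hexa. Creg1 had 25.5, 25.6, 24.7 and 29.3 CPM with dextran, against 38.7, 52.9, 38.4 and 29.3 CPM in control, a log2 difference of -0.60 ± 0.17 (SE, adjusted p = 0.857), with 1 control library inside the dextran range. Ctsa, the protective protein that also acts as a carboxypeptidase, had 2.77, 6.93, 5.88 and 5.09 CPM with dextran, against 6.96, 16.5, 10.3 and 6.63 CPM in control (log2 difference -0.97 ± 0.37, SE, adjusted p = 0.878). Ctsl had 4.95, 4.38, 1.46 and 3.37 CPM with dextran, against 19.9, 119, 3.27 and 1.99 CPM in control, and Ctsz, a carboxypeptidase-type cathepsin, had 0.594, 0, 0 and 0.143 CPM with dextran, against 1.34, 9.91, 0 and 0 CPM in control. For Ctsl and Ctsz, oocyte control library 2 was by far the highest and control library 1 came next. These libraries held 2477 and 598 CPM of granulosa markers, with all 15 of the markers detected in each. Cd63 had the same shape, at 0.924, 0.719, 0 and 1.94 CPM with dextran, against 3.21, 21.9, 0.863 and 0 CPM in control. Without control libraries 1 and 2 the log2 difference of Ctsl was 0.42 (adjusted p = 0.979) in place of -3.36, that of Cd63 was 1.03 (adjusted p = 0.979) in place of -2.87, and that of Creg1 was -0.37 (adjusted p = 0.933) in place of -0.60. The part of granulosa RNA in the other differences was not tested. As 3 reads in an oocyte library stand for 0.159 to 0.215 CPM, Ctsz lay at or near the limit of detection in 2 of the control and 3 of the dextran libraries. With library totals alone in place of TMM, 11 of the 45 genes were positive and Sqstm1 changed sign.

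**Figure D4:**
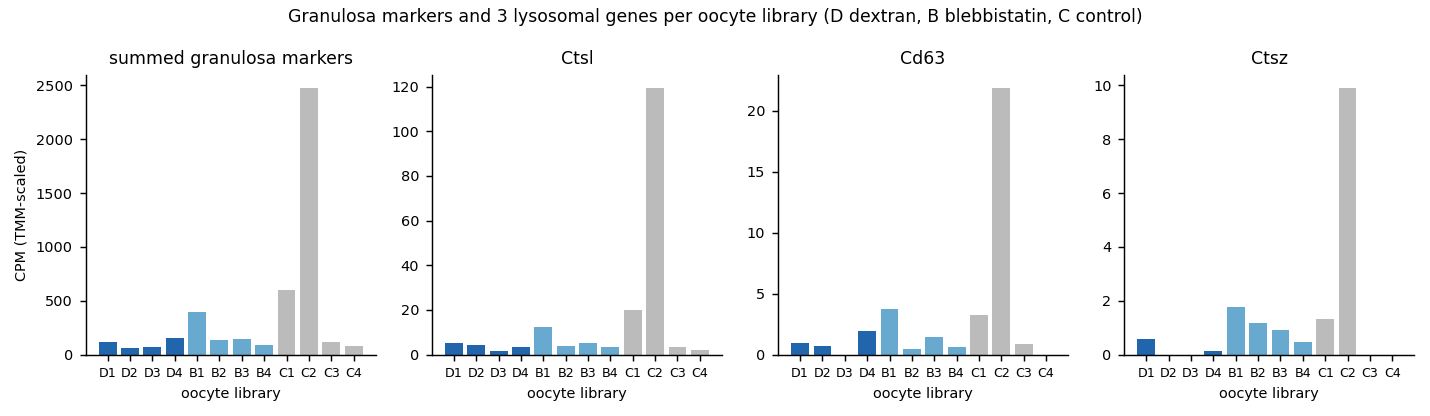
Summed CPM of the 15 granulosa markers, and CPM of Ctsl, Cd63 and Ctsz, in each of the 12 oocyte libraries (D dextran, B blebbistatin, C control; 1 bar per library). Control library 2 has 2477 CPM of the markers and the highest value of all 3 lysosomal genes.

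The pump subunits lay close to control in oocytes. Atp6v0c had 454, 499, 342 and 427 CPM with dextran, against 394, 373, 481 and 530.5 CPM in control, and Atp6v0d1 had 185, 211, 178 and 173 CPM with dextran, against 176, 163, 208 and 196 CPM in control. Atp6v1b2 had 281, 232, 376 and 285 CPM with dextran, against 291, 259, 265 and 241 CPM in control. Atp6v1a, with the largest positive log2 difference of the V1 subunits, had 61.4, 59.3, 92.8 and 67.2 CPM with dextran, against 47.5, 74.6, 47.3 and 58.1 CPM in control (0.30 ± 0.17, SE, adjusted p = 0.948). Groups overlapped for each. Of the membrane proteins, Npc1 had 209, 183, 217 and 188 CPM with dextran, against 195, 195, 191 and 192 CPM in control, and Mcoln1 had 96.1, 104, 125 and 74.04 CPM with dextran, against 76.3, 70.8, 88.03 and 93.5 CPM in control. The transcription factor Tfe3 had 154, 202, 123 and 121 CPM with dextran, against 143, 136, 164 and 170.1 CPM in control (log2 difference -0.03 ± 0.16, SE, adjusted p = 0.999).

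With blebbistatin, none of the genes passed in oocytes either. No gene of 16749 passed in edgeR's test, 686 had an unadjusted p under 0.05 (4.1%), and of the 45 genes tested 1 did, Ctsl, again with the control library 2 value. The log2 difference between blebbistatin and control was positive for 22 of the 45, against 48.6% of all genes, with a median of -0.01 for the 45 and -0.01 for all genes. Groups did not separate for any of the 45, against 1.21% of all genes wholly higher and 1.4% wholly lower. Lamp1 had 232, 228, 215 and 185 CPM with blebbistatin, against 225, 217, 273 and 366 CPM in control, a log2 difference of -0.33 ± 0.17 (SE, adjusted p = 1) with overlap. Tpp1, the tripeptidyl peptidase, averaged 5.68 ± 1.53 CPM with blebbistatin and 8.87 ± 2.89 CPM in control (SD, n = 4 each; log2 difference -0.64 ± 0.34, SE, adjusted p = 1). Plbd1, the gene with the smallest adjusted p in granulosa cells, had 3.59, 3.59, 1.23 and 2.56 CPM in blebbistatin oocytes, against 5.42, 10.1, 3.70 and 2.17 CPM in control oocytes (log2 difference -0.96 ± 0.47, SE, adjusted p = 1). Atp6v0e2 averaged 15.3 ± 5.46 CPM with blebbistatin and 17.1 ± 5.46 CPM in control (SD, n = 4 each).

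Between the 2 treatments in oocytes, no gene passed in edgeR's test and 682 had an unadjusted p under 0.05 (4.07%). The log2 difference between blebbistatin and dextran was positive for 31 of the 45 genes, against 49.8% of all genes, with a median of 0.09 for the 45 and 0.00 for all genes. Of the 45, 2 genes lay wholly higher with blebbistatin (1.43% of all genes did) and 1 wholly lower (1.34%). Creg1 had 42.4, 37.7, 37.7 and 36.7 CPM with blebbistatin, against 25.5, 25.6, 24.7 and 29.3 CPM with dextran, a log2 difference of 0.56 ± 0.17 (SE, adjusted p = 0.999). Atp6v0e had 151, 148, 142 and 148 CPM with blebbistatin, against 122, 137, 133 and 127 CPM with dextran, a log2 difference of 0.18 ± 0.11 (SE, adjusted p = 0.999). Lamp1 was the lower one, at 232, 228, 215 and 185 CPM with blebbistatin, against 261, 236, 309.9 and 358 CPM with dextran, a log2 difference of -0.44 ± 0.17 (SE, adjusted p = 0.999).

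Oocytes and granulosa cells differed in most genes measured, lysosomal or not. In blebbistatin medium 40 of the 46 genes passed the threshold in either direction, beside 16251 of all 20601 genes, so the description below turns on direction and role. The comparison in blebbistatin medium rests on libraries that did not choose the set; that in control medium shares the granulosa control libraries with the choice. All 46 genes passed the filter on low counts in the fit over 24 libraries, whose CPM are scaled over all of them, but Tfeb did so through its granulosa reads alone and is left out of the counts here. Of the other 45, which passed in each cell type taken separately, 13 rose in oocytes relative to granulosa cells in blebbistatin medium and 26 fell (edgeR, adjusted p under 0.05 over 20601 genes). Of all genes, 44.3% were higher and 34.6% lower, and of the 11683 genes that passed the filter in both cell types 35.3% were higher and 38% lower. The median log2 difference, oocyte minus granulosa cell, was -1.91 for the 45 and -0.05 for the 11683. In control medium 15 rose and 25 fell, against 44.4% and 32.9% of all genes and 36.1% in each direction of the 11683, with a median of -1.64 for the 45 and 0.00 for the 11683. In dextran medium, whose granulosa libraries chose the set, 13 were higher and 27 lower in oocytes by the same rule, against 44% and 35.4% of all genes, with a median of -1.93 for the 45, given as a description. The 46 genes together took 0.380% to 0.410% of the counts in oocyte libraries and 0.713% to 1.14% in granulosa libraries.

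**Figure D5:**
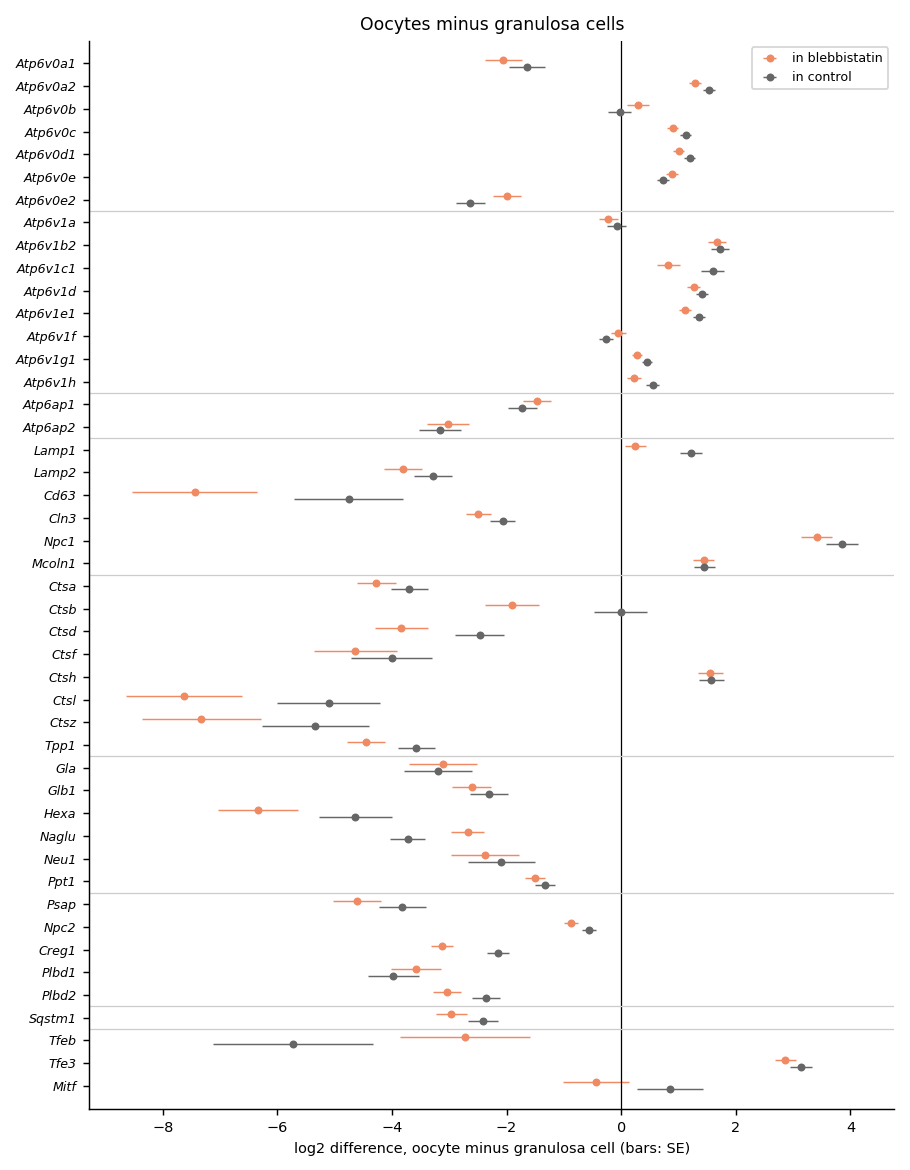
Log2 difference, oocyte minus granulosa cell, of the 46 genes in blebbistatin and in control medium, with bars for the standard error and lines between roles from the V0 sector (top) to the transcription factors (bottom). Most pump subunits lie right of 0, and the glycosidases, the lumenal proteins and the proteases other than Ctsh lie left of it, with Ctsb at -0.01 in control medium. The plotted value of Tfeb rests on 7 oocyte reads in blebbistatin and 1 in control medium and is no estimate of its fold.

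Of the 15 V0 and V1 subunits of the proton pump, 9 rose and 2 fell in oocytes in blebbistatin medium, and 10 rose and 2 fell in control medium (60% and 66.7% higher, against 35.3% and 36.1% of the genes that passed in both cell types). With library totals alone in place of TMM, 8 were higher and 4 lower in both media. Of the calls over all genes, 52.7% were then higher in blebbistatin medium and 52.1% in control medium. With TMM these shares were 56.2% and 57.5%. The 2 accessory proteins, described below, fell. Of the 8 V1 subunits, 5 rose and none fell in blebbistatin medium, and 6 rose and none fell in control medium. Atp6v1b2 averaged 325 ± 23.4 CPM in oocytes and 102 ± 24.5 CPM in granulosa cells in blebbistatin medium (SD, n = 4 each), a log2 difference of 1.67 ± 0.16 (SE, adjusted p = 5.72e-09). Atp6v1d, a subunit of the central rotor, averaged 233 ± 12.1 CPM in oocytes and 97.2 ± 11.8 CPM in granulosa cells (log2 difference 1.26 ± 0.11, SE, adjusted p = 9.39e-10). Atp6v1a did not pass, with 73.6 ± 5.91 CPM in oocytes and 85.99 ± 11.2 CPM in granulosa cells (log2 difference -0.22 ± 0.17, SE, adjusted p = 0.23), nor did Atp6v1f (adjusted p = 0.734). The calls on Atp6v1g1 and Atp6v1h depended on the scaling. With library totals alone, where the median of all genes was 0.10 in place of 0.36 in blebbistatin medium and 0.06 in place of 0.41 in control medium, Atp6v1g1 did not pass in either medium and Atp6v1h did not pass in control medium. Atp6v1a and Atp6v1f then passed as lower in oocytes.

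In V0, 4 of 7 subunits rose and 2 fell in both media, and paralogous isoforms went opposite ways. Atp6v0a2 averaged 142 ± 17.6 CPM in oocytes and 58.3 ± 4.87 CPM in granulosa cells (log2 difference 1.29 ± 0.11, SE, adjusted p = 6.99e-10), whereas Atp6v0a1 averaged 12.03 ± 1.33 CPM in oocytes and 50.04 ± 23.5 CPM in granulosa cells (-2.06 ± 0.33, SE, adjusted p = 8.62e-06). Atp6v0e averaged 162 ± 8.06 CPM in oocytes and 87.9 ± 10.2 CPM in granulosa cells (0.88 ± 0.10, SE, adjusted p = 1.42e-07), whereas Atp6v0e2 averaged 16.7 ± 5.51 CPM in oocytes and 66.6 ± 15.7 CPM in granulosa cells (-1.999 ± 0.25, SE, adjusted p = 3.12e-07). Each pair thus had 1 isoform higher and 1 lower in oocytes in both media. Atp6v0c and Atp6v0d1 rose, by 0.90 ± 0.10 and 1.004 ± 0.09 on the log2 scale (SE, adjusted p = 9.46e-08 and 5.75e-09). The 2 accessory proteins fell: Atp6ap2, which helps to assemble the pump and is also known as the prorenin receptor, averaged 10.5 ± 4.19 CPM in oocytes and 85.4 ± 11.2 CPM in granulosa cells, and Atp6ap1 57.8 ± 12.9 CPM in oocytes and 160.01 ± 34.8 CPM in granulosa cells (SD, n = 4 each).

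The a-subunit genes Tcirg1 and Atp6v0a4, outside the 46, are given as a description. They were named for a small p in opposite directions. Tcirg1 was low in oocytes and Atp6v0a4 unread in granulosa cells, so no split between isoforms is read from them. Tcirg1 averaged 1.14 ± 0.739 CPM in oocytes and 31.3 ± 16.3 CPM in granulosa cells, and Atp6v0a4 averaged 17.7 ± 2.53 CPM in oocytes with no read in any of the 4 granulosa libraries (blebbistatin medium, SD, n = 4 each).

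The enzymes of the lumen were lower in oocytes almost throughout. All 6 glycosidases and thioesterases fell in both media, as did all 5 other lumenal proteins and Sqstm1. Of the 8 proteases, 7 fell in blebbistatin medium and 6 in control medium. Ctsl averaged 6.99 ± 4.74 CPM in oocytes and 1391 ± 40.7 CPM in granulosa cells in blebbistatin medium (log2 difference -7.63 ± 1.01, SE, adjusted p = 8.84e-07), and Ctsz 1.19 ± 0.630 CPM in oocytes and 193 ± 42.1 CPM in granulosa cells (-7.33 ± 1.04, SE, adjusted p = 2.14e-06). Tpp1 averaged 6.26 ± 1.77 CPM in oocytes and 137 ± 34.7 CPM in granulosa cells (-4.46 ± 0.33, SE, adjusted p = 1.53e-10). Creg1 averaged 42.5 ± 4.05 CPM in oocytes and 372 ± 84 CPM in granulosa cells (-3.13 ± 0.20, SE, adjusted p = 1.29e-11). Psap averaged 35.05 ± 13.96 CPM in oocytes and 858 ± 456 CPM in granulosa cells (-4.61 ± 0.42, SE, adjusted p = 3.52e-09). Granulosa libraries 1 and 2, with macrophage markers, held 1174 and 1542 CPM of Psap, and libraries 3 and 4 held 545 and 513 CPM, scaled within granulosa cells. Over the alternative fits the Psap difference ranged from -4.95 to -3.61. Ctsh, an aminopeptidase-type cathepsin, was the 1 protease that rose, with 236 ± 12.2 CPM in oocytes and 80.3 ± 17.6 CPM in granulosa cells (1.55 ± 0.22, SE, adjusted p = 1.7e-06). It was singled out after its values were seen. The fall of Ctsb was not seen without the libraries with macrophage markers. It averaged 195 ± 20.4 CPM in oocytes and 734 ± 653 CPM in granulosa cells (-1.91 ± 0.47, SE, adjusted p = 0.000984); without blebbistatin granulosa libraries 1 and 2 the difference was 0.29 with an adjusted p of 0.28, and in control medium it was -0.01 ± 0.46 (adjusted p = 0.983). Without those libraries 14 of the 46 genes were called higher and 26 lower. In that fit 58.7% of the calls over all genes were higher, and the median of all genes was 0.61. Unlike the counts of 45 genes, this count includes Tfeb, and nothing further is read from it.

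Granulosa markers were detected in the oocyte libraries, most in control library 2. In control oocytes, Ctsl averaged 45.5 ± 72.1 CPM, Cd63 8.18 ± 13.3 CPM and Hexa 4.34 ± 5.20 CPM (SD, n = 4), and the SD exceeded the mean for each, with library 2 the highest. Cd63 averaged 1.78 ± 1.75 CPM in oocytes and 313 ± 18.9 CPM in granulosa cells in blebbistatin medium (log2 difference -7.44 ± 1.09, SE, adjusted p = 3.35e-06), against 8.18 ± 13.3 CPM in oocytes and 222 ± 5.27 CPM in granulosa cells in control medium (-4.76 ± 0.95, SE, adjusted p = 0.000137). Without oocyte control libraries 1 and 2 the median of the 46 in control medium was -2.01 in place of -1.68. That of all genes was 0.21 in place of 0.41.

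The membrane proteins were divided. Npc1 averaged 197 ± 25.4 CPM in oocytes and 18.5 ± 11.1 CPM in granulosa cells (log2 difference 3.41 ± 0.28, SE, adjusted p = 5.73e-10), the largest rise of the 46, while its lumenal partner Npc2 averaged 102 ± 6.45 CPM in oocytes and 188 ± 25.8 CPM in granulosa cells (-0.88 ± 0.12, SE, adjusted p = 1.47e-06). Mcoln1 rose by 1.44 ± 0.18 on the log2 scale (SE, adjusted p = 4.32e-07). Lamp1 rose in control medium (307 ± 51.3 CPM in oocytes and 131 ± 36.7 CPM in granulosa cells, 1.22 ± 0.19, SE, adjusted p = 7.38e-06) and did not pass in blebbistatin medium (0.25 ± 0.19, SE, adjusted p = 0.229), except without granulosa control library 1 (0.42, adjusted p = 0.0464). Lamp2 fell, with 14.4 ± 5.31 CPM in oocytes and 202 ± 41.5 CPM in granulosa cells in blebbistatin medium (-3.81 ± 0.33, SE, adjusted p = 2.02e-09). Lamp1 and Lamp2 are the 2 main lysosome-associated membrane glycoproteins.

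Among the transcription factors, Tfe3 rose in oocytes, with 171 ± 28.8 CPM in oocytes and 23.5 ± 3.99 CPM in granulosa cells in blebbistatin medium (log2 difference 2.87 ± 0.19, SE, adjusted p = 2.39e-11) and 175 ± 4.91 CPM in oocytes and 20.004 ± 4.59 CPM in granulosa cells in control medium (3.13 ± 0.19, SE, adjusted p = 7.13e-12). The single libraries held 178, 127, 162 and 155 CPM in blebbistatin oocytes and 22.1, 25.7, 23.6 and 32.3 CPM in blebbistatin granulosa cells, on the scale of each cell type. Tfeb was all but undetected in oocytes, with 5 reads in the 4 dextran libraries, 7 in the blebbistatin ones and 1 in the control ones, against 103, 65 and 120 reads in the matching granulosa libraries. As it entered the fit only through its granulosa reads, neither a fold nor a test is given for it. Mitf did not pass in either medium (adjusted p = 0.497 with blebbistatin and 0.185 in control).

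Genes of the same pathways outside the 46 were compared between the cell types in blebbistatin medium. Only genes that passed the filter on low counts in both cell types are counted, since a gene that passed through one cell type alone had to differ. Of the 11683 genes that passed in both, 35.3% were higher and 38% lower in oocytes. Of 33 other lysosomal hydrolases, 22 are counted; 4 rose and 13 fell in oocytes relative to granulosa cells, with a median log2 difference of -1.21. Smpd1, the acid sphingomyelinase, was among those that rose, with 183 ± 45.2 CPM in oocytes and 14.2 ± 5.69 CPM in granulosa cells, and Asah1, the acid ceramidase, among those that fell, with 6.01 ± 2.68 CPM in oocytes and 242 ± 38.6 CPM in granulosa cells (SD, n = 4 each). Of 23 other lysosomal membrane proteins, 18 are counted; 5 rose and 11 fell, with a median of -1.22. Mannose 6-phosphate sorting genes had 4 that rose and 6 that fell of 13, autophagy genes 9 and 11 of 26, and mTORC1 regulators 11 and 10 of 26. Atg5, part of the LC3 conjugation machinery, averaged 603 ± 17.4 CPM in oocytes and 58.5 ± 10.2 CPM in granulosa cells, and Gabarap, an LC3-family protein, 11.7 ± 1.03 CPM in oocytes and 132 ± 9.78 CPM in granulosa cells (SD, n = 4 each).

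Whether a medium acted differently on the 2 cell types was tested as the difference of differences, oocyte minus granulosa cell. For blebbistatin, 10 of 20601 genes passed in edgeR's test (0.0485%), 9 of them higher (0.0437%) and 1 lower (0.00485%), and none was among the 46. At an unadjusted p under 0.05 there were 11 of the 46, 10 of them lower, against 2322 of all genes (11.3%), 1540 of them lower. The value was negative for 36 of the 46 and for 11657 of all 20601 genes, with a median of -0.29 for the 46 and -0.10 for all genes. The median of the 46 turned sign without the libraries rich in other cells' markers, and so did that of all genes. Without blebbistatin granulosa libraries 1 and 2 it was 0.059 for the 46 and 0.15 for all genes. Without oocyte control libraries 1 and 2 it was 0.036 for the 46 and 0.27 for all genes. The granulosa control libraries in this comparison also chose the set. The smallest adjusted p-values of the 46 belonged to Creg1 (-0.98 ± 0.26 on the log2 scale, SE, adjusted p = 0.187) and Lamp1 (-0.98 ± 0.27, SE, adjusted p = 0.199). For dextran, which holds the contrast that chose the set, the values are a description: the difference of differences was -1.20 ± 0.26 for Creg1, -0.58 ± 0.15 for Atp6v1e1 and -0.98 ± 0.30 for Cln3 (SE each), and no gene of 20601 passed. Without oocyte control library 4 the values were -1.36 for Creg1 and -4.42 for Ctsl, again as a description. Over the alternative fits the value ranged from -1.36 to -0.80 for Creg1 and from -4.42 to 0.03 for Ctsl. Oocyte control libraries 1 and 2, rich in granulosa markers, held 19.9 and 119 CPM of Ctsl.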

How the data were processed

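Estimated counts per gene made with salmon were deposited by the authors, per the labels, in 1 table for 12 granulosa libraries and 1 for 12 oocyte libraries, with build GRCm39 per the submitters' processing notes. Neither the salmon version nor the annotation or strand setting is given in the sources used here. Estimated counts need not be whole and were rounded. edgeR 4.0.16 in R 4.3.3 (TMM scaling, filterByExpr, robust quasi-likelihood test, Benjamini-Hochberg adjusted p under 0.05) was fitted over 15370 genes in granulosa cells, 16749 in oocytes and 20601 over all 24 libraries. The script was tested on simulated data with 200 changed genes. Alternatives were RLE scaling, library totals alone, no filter, limma 3.58.1 voom, DESeq2 1.42.0, fits of only the groups compared, the replicate number as a block and each library left out. Fits without the libraries rich in other cell types' markers, and counts between cell types over genes that passed the filter in both, were added after seeing the data. The members and lists were chosen with earlier results of these data known. Text names 21 lysosomal genes in full, and for each comparison the up to 4 genes of smallest p in each direction. Other genes of the set named for a count or a value were chosen after their values were seen. Same-numbered libraries did not deviate together, so the numbers were not taken as pairs. Promoter sequences are RefSeq's, build GRCm38.p6, and were not mixed with GRCm39 coordinates. Reads came from PCR without stated molecular identifiers, so floors cover counting error only.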

Additional observations from a re-analysis of the deposited data

Results flagged for a closer look

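In 20 of 276 sets of 4 libraries, 1 library lay apart from the other 3, by a share of the range above Dixon's critical value, which chance gives in about 1 in 20 sets. In blebbistatin granulosa library 1, the highest, the gap was 0.882 of the range for Mcoln1, 0.954 for Neu1 and 0.975 for Creg1. In dextran granulosa cells, library 3 was the lowest for Atp6ap2 (0.957, with 66.5 CPM against 116.5 to 118.8 CPM in the other 3) and for Tpp1 (0.844), library 2 the lowest for Mcoln1 (0.858), and library 4 the highest for Plbd2 (0.839). In control granulosa cells, library 4 was the highest for Ctsl (0.883) and Plbd2 (0.840) and the lowest for Atp6v1f (0.839), library 1 the highest for Ctsb (0.986, with 299.6 CPM against 206 to 208 CPM), and library 2 the highest for Tfeb (0.846). In blebbistatin oocytes, library 2 was the highest for Atp6ap1 (0.874) and Ctsd (0.885), and library 4 the lowest for Ctsa (0.913). In control oocytes, library 2, which held the most granulosa markers, was the highest for Lamp2 (0.917), Cd63 (0.853), Ctsl (0.847) and Ctsz (0.865). Tfeb was read in control oocyte library 1 alone (1.000).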

How the results depend on the processing

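The treatment counts depended on the tool. With DESeq2, dextran against control in granulosa cells gave 42 genes (0.273%), 6 of them higher members of the set. As that contrast chose the set, nothing is read from the 6. DESeq2 called 377 genes (2.45%) for blebbistatin against control, with 5 higher and 3 lower of the 46, and 214 genes (1.39%) for blebbistatin against dextran with 1 of the 46 lower. In oocytes DESeq2 gave 4 genes for dextran (0.0239%) and 16 for blebbistatin (0.0955%). For the differences of differences it gave 382 genes (blebbistatin, 1.85%) and 243 (dextran, 1.18%), each with 1 of the 46 lower. Nothing about the 46 is read from these counts, nor from their counts in the alternative fits below. With no filter there were 4 genes for dextran in granulosa cells, 23 for blebbistatin (1 higher and 2 lower of the 46), 1 for blebbistatin against dextran, and 4 for blebbistatin in oocytes. Fits of only the groups compared gave 1 gene for dextran and 0 for blebbistatin in granulosa cells, and a median of -0.046 for the blebbistatin difference of differences; limma voom gave 18 genes there. The median of the 46 between cell types, Tfeb included, was -1.96 in blebbistatin, -1.68 in control and -2.13 in dextran medium. For all genes it was 0.36, 0.41 and 0.34. In blebbistatin medium the median of the 46 was -1.80 with RLE, -1.80 with DESeq2, -2.21 with library totals and -1.67 with voom. The median of all genes moved too, to 0.51, 0.51, 0.10 and 0.65 in that order. In control medium the 46 had -2.05 with totals and all genes 0.06. In dextran medium the 46 had -1.94 with RLE, -1.94 with DESeq2 and -2.40 with totals, and all genes 0.53, 0.53 and 0.06. Without blebbistatin granulosa libraries 1 and 2, blebbistatin against control gave 26 genes and 1 of the 46 lower, and blebbistatin against dextran 12 genes. The difference of differences then gave 130 genes with a median of 0.059 in place of -0.29, against 0.15 in place of -0.10 for all genes. Between cell types the median was -1.49, against 0.61 for all genes, with Ctsb reversed at 0.29. Without oocyte control libraries 1 and 2, the cell types in control medium had a median of -2.01, against 0.21 for all genes. The differences of differences then gave 3 genes and a median of 0.036 (blebbistatin) and 1 gene and a median of -0.20 (dextran). For all genes these medians were 0.27 and 0.10. With the replicate block, blebbistatin in granulosa cells gave 0 genes and the blebbistatin difference of differences 5; same-numbered libraries correlated at -0.20 to 0.25 in granulosa cells, and 5 of 12 correlated best with their own number. Leaving out each library gave 0 to 4 genes for dextran in granulosa cells, 0 to 115 for blebbistatin (0 to 1 of the 46 higher, 0 to 2 lower, the most without blebbistatin library 2), 0 to 3 for blebbistatin against dextran, and 2 to 103 (blebbistatin) and 0 to 91 (dextran, 0 to 2 of the 46 lower) for the differences of differences. Their medians were -0.39 to 0.0101 and -0.44 to -0.20. Between cell types the medians were -2.15 to -1.78 in blebbistatin, -1.96 to -1.50 in control and -2.26 to -2.01 in dextran medium. The causes of these changes were not tested.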
